A study of Mus musculus with 12 samples.

Results

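The transcripts described here had a signal that differed with AdipoAI in RAW264.7 macrophages, whether or not the cells were also given LPS, while their signal differed little between LPS and DMSO. They were chosen from the group means of the log2 normalized intensity, on which a difference of 1 is 2-fold. A probe was included when AdipoAI minus DMSO and AdipoAI+LPS minus LPS were both 1 or more in size with the same sign, and when LPS minus DMSO was under 0.585 in size, which is 1.5-fold. Probes also needed a signal well over background on 3 or more of the 12 arrays, and control, negative and lincRNA-named probes were left out. Of the 33292 probes that passed these filters, 379 (1.14%) met the limits, 215 with a higher and 164 with a lower signal with AdipoAI. Another 2 probes named as lincRNAs met the limits and were not counted. Because the limits were set on the means of all 4 groups, every comparison between the groups below describes the chosen probes and does not test them.

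The 12 arrays, each hybridised in 1 colour with RNA of RAW264.7 cells (a macrophage line of mouse origin), carried probes for lncRNAs and mRNAs and fell into 4 groups of 3. The DMSO cells had the vehicle for 24 h, the AdipoAI cells had AdipoAI for 24 h, and LPS for 6 h followed 24 h of AdipoAI in the AdipoAI+LPS cells. For the LPS cells the labels give 6 h of LPS, and what those cells received before it is not stated. LPS was used at 100 ng/ml. The labels do not say whether the DMSO and AdipoAI cells were kept for a further 6 h, so differences with LPS may also hold a difference in time. All groups are of the same cell line, and the labels do not say whether the arrays of a group came from separate cultures, so the spread between them may be technical. The macrophage identity of the cells could not be checked against marker genes, because the tables used here do not pair the maker's identifiers of the probes with genes.

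As background, LPS is a component of the outer membrane of Gram-negative bacteria that macrophages sense through Toll-like receptor 4, with adaptor proteins such as MyD88 leading to NF-kB and a wide inflammatory programme. AdipoAI is a small molecule, made as an analogue of AdipoRon, that acts on the adiponectin receptors AdipoR1 and AdipoR2, which signal through the adaptor APPL1, AMPK and PPAR-alpha. Transcripts that move with such an agonist and hardly with LPS are read apart from the inflammatory programme itself, which is the reason to look at them as a set.

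Between 29298 and 32969 probes were well above background on an array, no spot was saturated, and 3 arrays per group limit the precision of every value. The scanner files show 2 scans. The first held the DMSO arrays, the LPS arrays and AdipoAI replicates 1 and 2, and all AdipoAI+LPS arrays were in the second with AdipoAI replicate 3. AdipoAI+LPS minus LPS therefore lies between the scans, where scan and treatment can be told apart only through the AdipoAI group. Among the chosen probes AdipoAI+LPS replicate 1 stood apart from its group in many of those lower with AdipoAI, and the group differences of the lower probes are also given without it. That array was part of the means used for the choice, so part of any shift without it follows from the choice. In bulk RNA, a change in the number of cells with a transcript and a change in its amount per cell cannot be told apart.

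The higher probes formed a set whose AdipoAI arrays lay clearly over all others. Relative to the DMSO mean, the mean log2 signal of the 215 probes was -0.27, 0.06 and 0.21 on the DMSO arrays and 0.07, -0.15 and 0.07 on the LPS arrays. It was 1.67, 1.37 and 1.76 on the AdipoAI arrays and 1.83, 1.61 and 1.39 on the AdipoAI+LPS arrays. The lowest array with AdipoAI thus lay more than 1 log2 unit over the highest array without it, and on both sides the arrays with LPS overlapped with those without it. As group values, AdipoAI had 1.60 ± 0.20 (SD, n = 3) and AdipoAI+LPS had 1.61 ± 0.22 (SD, n = 3), while LPS had -0.01 ± 0.12 (SD, n = 3).

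In the 164 lower probes the AdipoAI+LPS arrays spread widely. Their mean log2 signal relative to DMSO was 0.09, 0.08 and -0.17 on the DMSO arrays, -0.15, -0.03 and -0.19 on the LPS arrays and -1.38, -1.20 and -1.65 on the AdipoAI arrays. On the AdipoAI+LPS arrays it was -2.29, -1.10 and -1.37. All 6 arrays with AdipoAI lay below the 6 without it, and AdipoAI+LPS replicate 1 lay far below the other 5. AdipoAI had a group value of -1.41 ± 0.22 (SD, n = 3) and AdipoAI+LPS one of -1.59 ± 0.63 (SD, n = 3), or -1.23 without replicate 1.

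**Figure D1:**
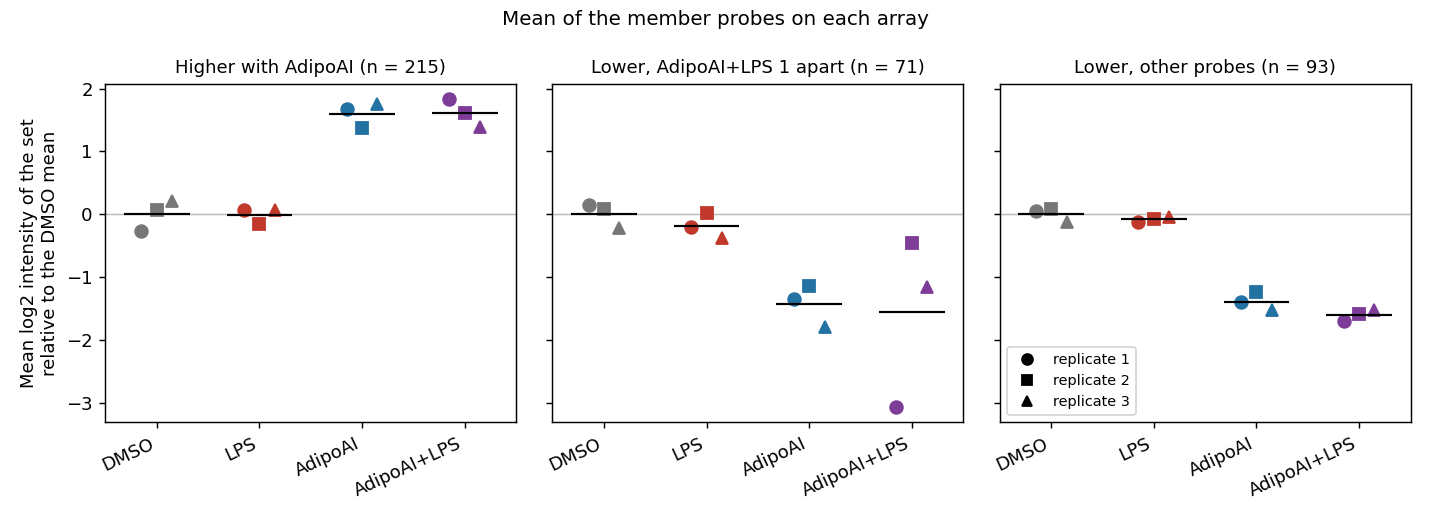
Mean log2 intensity relative to the DMSO mean of the probes higher with AdipoAI (left), of the lower probes in which AdipoAI+LPS replicate 1 lay at least 1 below the mean of replicates 2 and 3 (middle) and of the other lower probes (right), with 1 point per array and a line at each group mean. In the 215 higher probes the 3 AdipoAI+LPS arrays lie at 1.83, 1.61 and 1.39, and in the 71 probes of the middle panel at -3.06, -0.45 and -1.16. In the 93 other lower probes these arrays lie close together, which the split favours.

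The median size of the AdipoAI difference was close without and with LPS, which the same limit on both differences favours. For the higher probes the median of AdipoAI minus DMSO was 1.42 (2.68-fold) and that of AdipoAI+LPS minus LPS was 1.42 (2.67-fold), or 1.34 without AdipoAI+LPS replicate 1. For the lower probes the medians were -1.29 (2.45-fold lower) and -1.34 (2.53-fold lower), and without that array the second was -1.08 (2.11-fold lower). In 110 probes, 60 higher and 50 lower, a group was not well above background on any of its arrays, so that a difference there is only a bound and these medians are open to it. In the 269 measured in both comparisons the medians were 1.40 and 1.37 for the 155 higher and -1.28 and -1.29 for the 114 lower probes. Their values reached 4.02 and 3.96 among the higher and -4.12 and -5.24 among the lower probes. Over all 33692 probes tested the median sizes of these differences were 0.28 and 0.30. Most chosen probes lay near the limit, since 76 had both differences at 1.5 or more in size, 27 at 2 or more and 9 at 3 or more. Of the 27, 22 were higher with AdipoAI, but only 12 of these and 3 of the 5 lower ones were measured in both comparisons. Of the 9, 1 higher and 1 lower probe were.

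Across probes, AdipoAI minus DMSO had a Pearson r of 0.706 (Spearman's rho 0.509) with AdipoAI+LPS minus LPS among the 215 higher probes, and of 0.692 (rho 0.269) among the 164 lower ones. These comparisons share no array, and probes are not independent replicates. In the lower set the rho was much below r. Without AdipoAI+LPS replicate 1, r was 0.654 (rho 0.426) in the higher and 0.532 (rho 0.014) in the lower probes, so that the order in the lower set rested on that array. The difference was the larger with LPS in 107 of the 215 higher and 92 of the 164 lower probes, and without the array in 91 and 54.

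**Figure D2:**
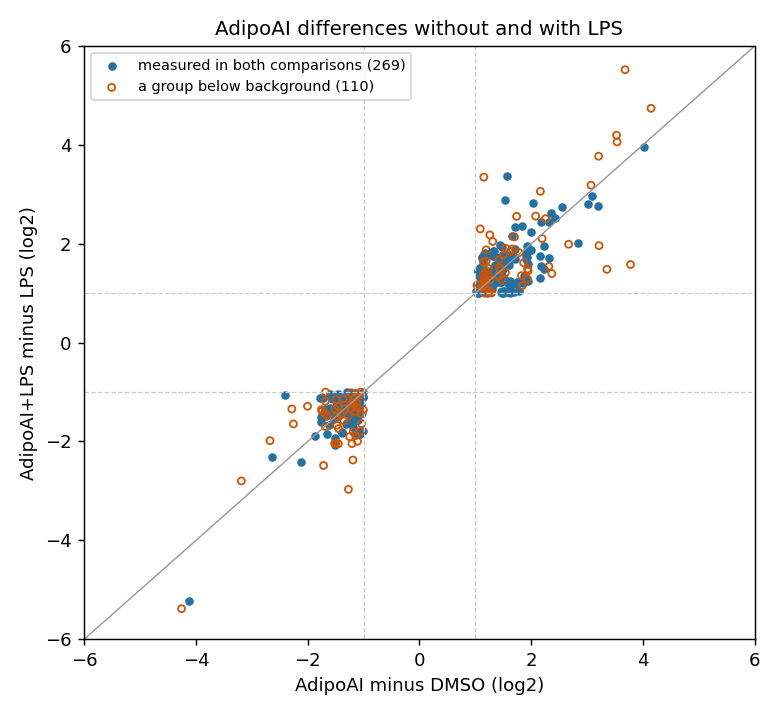
AdipoAI minus DMSO against AdipoAI+LPS minus LPS, both in log2, for the 379 probes, with dashed lines at the limits of the choice and a line of equal values. Filled points are the 269 probes whose signal was measured in both comparisons and open points the 110 with at least 1 group not well above background on any array; the points lie in 2 clouds along the line of equal values because probes were chosen that way.

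The separation of arrays was looser for single probes than for the set. In 274 of the 379 probes (72.3%) the arrays of the groups did not overlap in either AdipoAI comparison, beside 16.8% of all probes tested. In AdipoAI minus DMSO alone this held for 325 probes, beside 35.6% of all probes, and in AdipoAI+LPS minus LPS for 301 (185 higher, 116 lower), beside 37.7%. In 252 probes, 152 higher and 100 lower, all 6 arrays with AdipoAI lay beyond all 6 arrays without it. For this count the share of all probes was not computed, and nothing is read from it. At an adjusted p under 0.05 limma called 232 of the chosen probes in AdipoAI vs. DMSO, 149 higher and 83 lower, beside 14.5% of all probes (6.92% higher and 7.53% lower). In AdipoAI+LPS vs. LPS it called 235, 150 higher and 85 lower, beside 17.1% (8.2% higher and 8.9% lower), and 207 were called in both, 137 higher and 70 lower, beside 6.86%. These shares follow from the choice and nothing is read from them, but they leave 172 probes that met the limits without a call in both comparisons, 94 of them among the 164 lower probes. LPS vs. DMSO was called in 23 of the 379, beside 38.5% of all probes, and the limit on that difference fixed a low count.

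ASMM10P050821 ranked first among the higher probes well above background on all 12 arrays, by the smaller of the AdipoAI differences. Its log2 signal was 3.77, 3.81 and 3.77 in DMSO, 4.23, 4.19 and 4.09 in LPS, 7.24, 8.05 and 8.12 in AdipoAI, and 8.13, 7.92 and 8.33 in AdipoAI+LPS. Every array with AdipoAI lay more than 3 log2 units over every array of DMSO and LPS. The means were 3.78 ± 0.02, 4.17 ± 0.07, 7.80 ± 0.49 and 8.13 ± 0.20 (SD, n = 3) in that order. Its difference was 4.02 (16.2-fold) without LPS and 3.96 (15.5-fold) with LPS, and LPS minus DMSO was 0.39. With background correction by normexp in place of the scanner's own, its differences became 2.02 and 2.19, below those of ASMM10P036374, the second by rank, at 3.06 and 2.94.

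ASMM10P036374 came next among the higher probes and was bright in every group. Its log2 signal was 11.54, 11.95 and 11.96 in DMSO, 11.80, 11.79 and 12.03 in LPS, 14.95, 14.89 and 14.87 in AdipoAI, and 14.79, 14.84 and 14.90 in AdipoAI+LPS. The DMSO and LPS arrays overlapped, as did the AdipoAI and AdipoAI+LPS arrays, while the nearest arrays with and without AdipoAI were over 2 log2 units apart. Its AdipoAI difference was 3.09 (8.49-fold) without LPS and 2.97 (7.81-fold) with LPS, and LPS minus DMSO was 0.06.

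ASMM10P028071 ranked first among the lower probes in the same way. Its log2 signal was 9.75, 9.73 and 9.79 in DMSO, 9.35, 9.40 and 9.54 in LPS, 5.71, 5.60 and 5.60 in AdipoAI, and 4.27, 4.22 and 4.10 in AdipoAI+LPS. No groups overlapped, and the signal was lowest where AdipoAI and LPS were combined. AdipoAI minus DMSO was -4.12 (17.4-fold lower) and AdipoAI+LPS minus LPS was -5.24 (37.7-fold lower). AdipoAI+LPS lay 1.44 below AdipoAI, whereas LPS lay 0.32 below DMSO. With normexp the AdipoAI differences were -3.04 and -3.31.

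The probe whose identifier precedes ASMM10P028071 was also among the lower probes, with an AdipoAI minus DMSO difference of -4.26. Its log2 signal was 7.63, 7.67 and 7.95 in DMSO, 7.86, 7.86 and 8.05 in LPS, 3.79, 3.48 and 3.21 in AdipoAI, and 3.26, 2.34 and 2.02 in AdipoAI+LPS. It was well above background on 1 AdipoAI array and on no AdipoAI+LPS array, so that its signal was at least 24.5-fold lower in AdipoAI+LPS than in LPS.

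ASMM10P009407 ranked second among the lower probes well above background on all arrays and shows how far AdipoAI+LPS replicate 1 can set a mean. Its log2 signal was 10.41, 10.42 and 9.82 in DMSO, 9.95, 10.06 and 9.65 in LPS, 8.49, 9.05 and 7.51 in AdipoAI, and 6.31, 9.02 and 8.65 in AdipoAI+LPS. All arrays with AdipoAI lay below all without it, but the AdipoAI+LPS arrays covered a range of over 2 log2 units. Its differences of -1.87 and -1.89 did not pass limma's adjusted threshold in either comparison (adjusted p = 0.0677 and 0.0587 by limma). Without AdipoAI+LPS replicate 1 the difference with LPS was -1.05, and with the scan as a block it was -0.64. None of these 4 identifiers is paired with a gene in the tables used here.

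**Figure D3:**
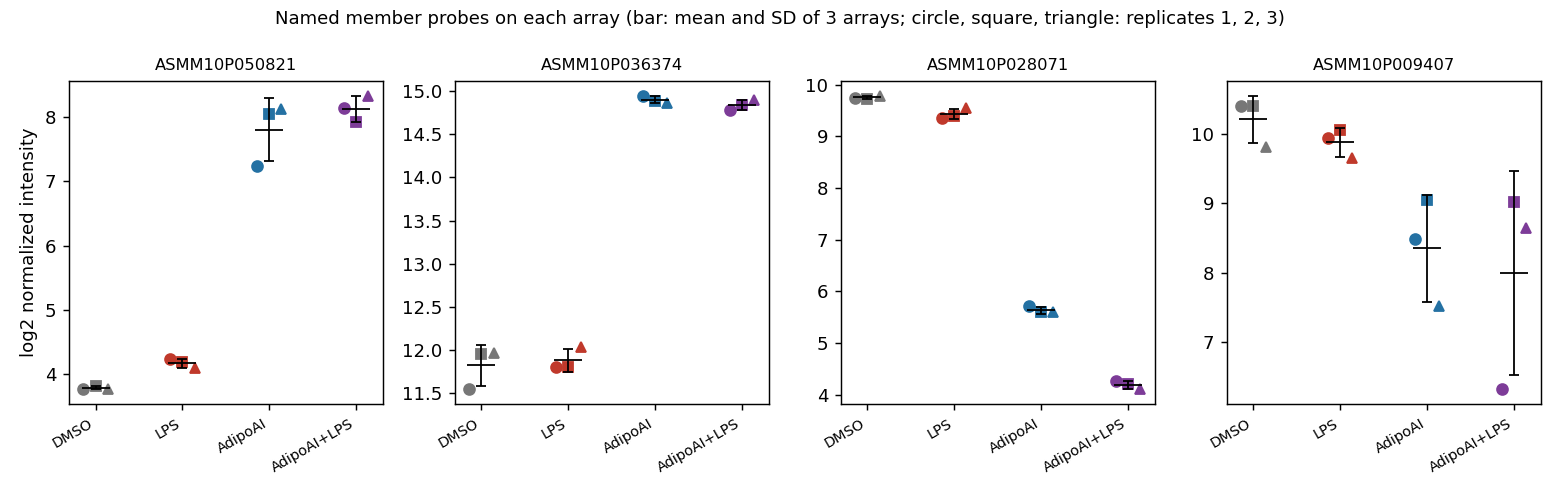
Log2 normalized intensity of the 4 named probes on the 12 arrays (circle, square and triangle for replicates 1, 2 and 3), with the mean and SD of each group; the axes do not start at 0 and differ between panels. ASMM10P050821 and ASMM10P036374 are high on all 6 arrays with AdipoAI, ASMM10P028071 is lowest in AdipoAI+LPS at 4.27, 4.22 and 4.10, and ASMM10P009407 spans 6.31 to 9.02 in AdipoAI+LPS.

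The difference of the chosen probes with LPS in cells that already had AdipoAI was not limited by the rule as such, but it is made of the same group means. AdipoAI+LPS minus AdipoAI was under 0.585 in size in 315 of the 379 probes (83.1%), beside 68.6% of all probes tested, and 1 or more in size in 16, beside 15%. Its median was 0.02 in the higher and -0.15 in the lower probes, and in the lower probes 111 of the 164 had a negative value. Without AdipoAI+LPS replicate 1 the direction in the lower probes turned, with 60 of the 164 negative and a median of 0.22. In the higher probes the median was then -0.08, and 167 of the higher and 102 of the lower probes were under 0.585 in size. Since the probes were chosen with that array in the means, part of these shifts follows from the choice. At an adjusted p under 0.05 limma called 44 of the 379 (11.6%) in AdipoAI+LPS vs. AdipoAI, beside 32.3% of all probes. Of these, 19 were higher and 25 lower with LPS, beside 13.3% and 19% of all probes, and 29 had the LPS difference in the direction of the AdipoAI difference. With the scan as a block, 15 probes were called, and the share of all probes in that fit was not computed.

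Across probes, LPS minus DMSO had a Pearson r of 0.397 (rho 0.464) with AdipoAI+LPS minus AdipoAI in the higher set and of 0.335 (rho 0.361) in the lower set. These values differ only by the interaction, which the choice of probes narrows, so a positive r follows from the choice and nothing is read from it. Both comparisons had a median size near 0.3 in the chosen probes: 0.26 for LPS minus DMSO in the higher and lower sets, and 0.29 and 0.27 for AdipoAI+LPS minus AdipoAI. Over all probes tested these medians were 0.42 and 0.35.

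**Figure D4:**
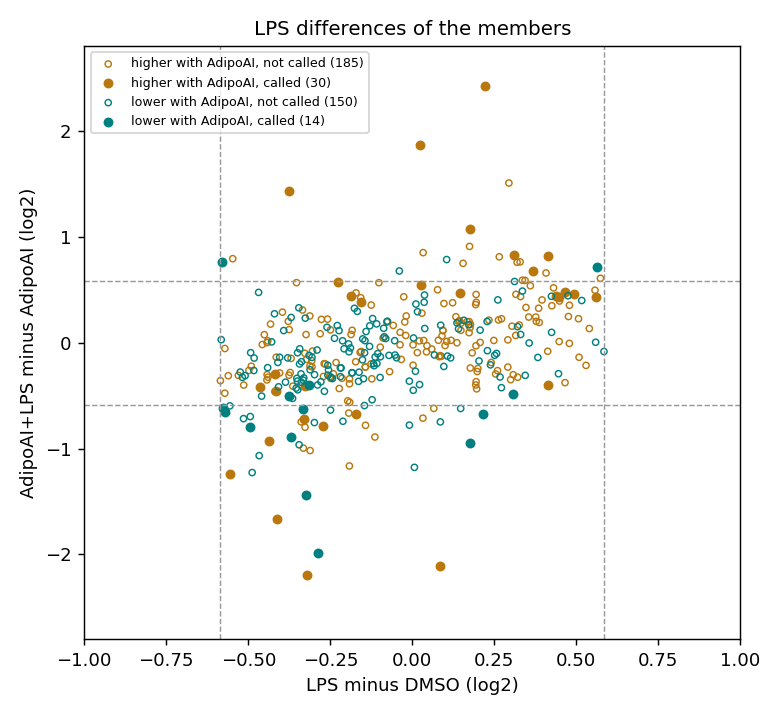
LPS minus DMSO against AdipoAI+LPS minus AdipoAI, both in log2, for the 379 probes, with dashed lines at 0.585 on either side of 0 and filled points for the 44 probes called by limma in AdipoAI+LPS vs. AdipoAI. The horizontal spread is limited by the choice of probes, and 315 of the 379 lie between the dashed lines on the vertical axis too.

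The interaction, which is AdipoAI+LPS minus LPS less AdipoAI minus DMSO, had a median size of 0.23 in the higher and 0.21 in the lower probes, near the 0.25 of all probes tested. It was under 0.585 in size in 317 probes (83.6%), beside 81.6% of all probes. Limma called it in 8 of the 379 (2.11%), beside 3.08% of all probes. An unadjusted p under 0.05 by limma was found in 28, for which the share of all probes was not computed. Probes that met the AdipoAI limits but not the LPS limit numbered 449. Of these, 261 were higher with AdipoAI, and 34 of them (13.0%) had a called interaction; in the 188 lower ones the number was 12 (6.38%). The limits on 3 of the 4 group differences narrow the interaction, so these shares are given side by side only.

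Seen from the probes that AdipoAI moved, a flat LPS response was no rarity. Of the 33292 probes, 828 (2.49%) met both AdipoAI limits with the same sign, and 379 of them (45.8%) were under the LPS limit. The share was 45.2% (215 of 476) for the higher and 46.6% (164 of 352) for the lower probes. Among all probes tested, 63.1% were under the LPS limit. Of the 449 that were not, 231 were higher and 218 lower with LPS.

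Many of the chosen probes lay near background, and part of them gave only a bound. Well above background on all 12 arrays were 213 of the 379 (56.2%), beside 75% of all probes tested. The dimmest 11231 of the tested probes by mean signal held 167 of the 379, the middle 11230 held 90 and the brightest 11231 held 122. On the side where their signal was low, 75 probes were not well above background on any array, and in 17 of these all 6 arrays of the other side were well above background. A probe with no array well above background in a group has only a bound there, computed against the lowest signal that was well above background on each array. In AdipoAI minus DMSO 89 probes gave a bound and in AdipoAI+LPS minus LPS 92. The bound was above 1-fold in 74 and 80 of them and at least 2-fold in both comparisons in 7. The largest bounds among the higher probes were at least 10.6-fold and at least 16.0-fold, and another 4 probes were not well above background in either DMSO or AdipoAI.

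Within the first scan, where AdipoAI replicates 1 and 2 can be set against DMSO, 377 of the 379 probes kept their sign and 324 kept a difference of 1 or more. The same arrays were part of the means used for the choice, so these counts largely follow from it and are no separate check. The median was 1.37 in the higher and -1.21 in the lower probes. AdipoAI replicate 3, from the second scan, gave medians of 1.60 and -1.61 against DMSO. In the lower probes it was the lowest AdipoAI array in 109 of 164, and in the higher probes the highest in 95 of 215. With the scan as a block in the fit, 396 probes met the limits, but only 214 of the 379 were among them, 144 higher and 70 lower. The calls in AdipoAI+LPS vs. LPS then fell from 235 to 80 of the 379, in a fit where AdipoAI replicate 3 alone ties the AdipoAI+LPS arrays to the first scan. The share of all probes called in that fit was not computed, so the fall is not read as a trait of the chosen probes.

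AdipoAI+LPS replicate 1 decided much of the lower set. In 71 of the 164 lower probes (43.3%) it lay at least 1 log2 unit below the mean of replicates 2 and 3, beside 4.16% of all probes tested. For the other 11 arrays the like number among the lower probes was between 2 and 17. In 93 of the 164 it was the lowest of all 12 arrays. Among the higher probes it lay at least 1 log2 unit above replicates 2 and 3 in 21 of 215, beside 2.87% of all probes. In 58 of the 215 it was the highest of all 12 arrays. For the 93 and the 58 the share of all probes was not computed. In the higher probes other arrays stood apart more often. AdipoAI replicate 2 lay at least 1 below the others of its group in 42 of the 215, DMSO replicate 1 in 32, and LPS replicate 2 and AdipoAI+LPS replicate 3 in 29 each. The median SD of the AdipoAI+LPS arrays was 0.62 in the lower probes and 0.21 over all probes tested.

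Split by this array, the lower probes were unlike mainly in their AdipoAI+LPS values, and AdipoAI replicate 3 differed too. In the 71 probes the mean relative to DMSO was -1.35, -1.15 and -1.80 on the AdipoAI arrays and -3.06, -0.45 and -1.16 on the AdipoAI+LPS arrays. The mean of AdipoAI+LPS replicates 2 and 3 was 1 or more below LPS in only 11 of the 71, although it was below LPS in 65. AdipoAI replicate 3 was the lowest AdipoAI array in 57 of the 71 and in 52 of the other 93, and its median difference from DMSO was -1.80 and -1.45. In the other 93 probes the means were -1.40, -1.24 and -1.53 on the AdipoAI arrays and -1.70, -1.59 and -1.53 on the AdipoAI+LPS arrays. Replicates 2 and 3 were 1 or more below LPS in 80 of these 93. Limma called AdipoAI vs. DMSO in 17 of the 71 and in 66 of the 93, beside 14.5% of all probes tested. Both AdipoAI comparisons were called in 10 and in 60, beside 6.86% of all probes. The fit uses 1 spread per probe over all 4 groups. The median SD of the AdipoAI+LPS arrays was 1.41 in the 71 and 0.37 in the 93. Fewer calls in the 71, in AdipoAI vs. DMSO too, are thus favoured by the split, and nothing is read from them. AdipoAI minus DMSO had medians of -1.34 in the 71 and -1.25 in the 93. This split was made after the values were seen and uses the AdipoAI+LPS arrays themselves.

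**Figure D5:**
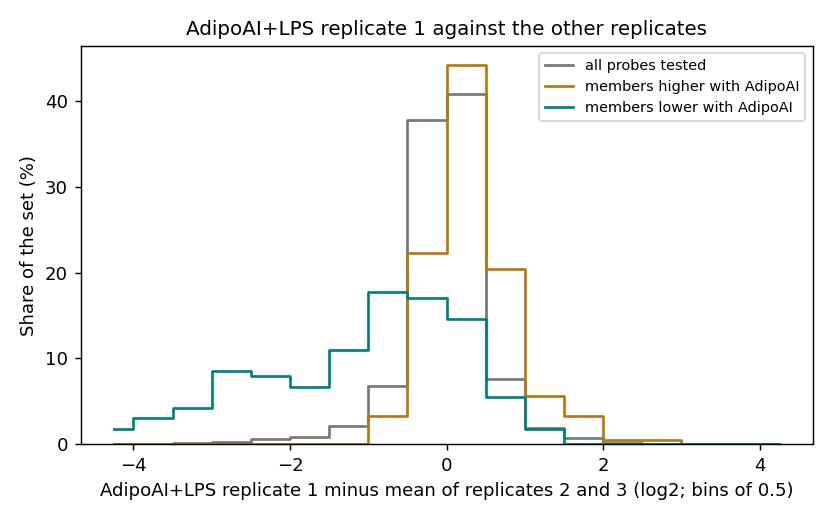
Share of probes, in percent, by AdipoAI+LPS replicate 1 minus the mean of replicates 2 and 3 in log2 (bins of 0.5; the end bins hold all values beyond 4), for all 33692 probes tested, the 215 higher and the 164 lower probes. The lower probes have a long tail to the left, with a median of -0.81, whereas the medians of the higher probes and of all probes tested are 0.22 and 0.01.

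Without AdipoAI+LPS replicate 1 the limits were met by 92 lower probes in place of 164, of which 91 were among the 164, and by 275 probes in all. On the control spots named for the 3' and 5' ends of mouse GAPDH, the log2 difference between the ends was 1.54, 1.58 and 1.65 in DMSO, 1.57, 1.56 and 1.82 in LPS, 1.28, 1.75 and 1.25 in AdipoAI, and 1.33, 1.45 and 1.91 in AdipoAI+LPS. On 4 of the 6 arrays with AdipoAI it lay below every array without it. AdipoAI replicate 2 and AdipoAI+LPS replicate 3, the other arrays with AdipoAI, had the smallest means of the higher probes, 1.37 and 1.39. The like control spots of mouse PGK1 did not show this order. Their difference was 7.51 to 7.55 in DMSO and 7.17 to 8.03 in LPS. With AdipoAI it was 7.59 to 8.03, and in AdipoAI+LPS 7.39 to 7.76, so that arrays with and without AdipoAI overlapped. The part of RNA quality, handling or hybridisation in the GAPDH and PGK1 values and in the probe means was not tested.

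The limits were sharp against the spread of single probes. The members nearest to the AdipoAI limit had a smaller difference of 1.0006, 1.0010 and 1.0013, and the nearest probes outside it had 0.9992, 0.9990 and 0.9973. Within 0.1 of that limit there were 85 probes inside and 154 outside. At the LPS limit the nearest values were 0.5849 inside and 0.5984 outside, with 35 and 36 probes within 0.1. When each array was left out in turn, 117 of the 379 probes met the limits all 12 times, 82 higher and 35 lower.

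Probes with neighbouring identifiers were sometimes chosen together. Of 20358 pairs of tested probes whose identifiers follow each other by 1, 444 had at least 1 chosen probe and 19 had 2. In these 19 pairs 15 moved in the same direction and 4 in opposite directions. Their median Pearson r over the 12 arrays was 0.864, beside 0.085 for all such pairs, and the choice of both probes for differences between the groups raises it. The files used here do not say what the order of the identifiers follows. On the slide, 4 equal blocks of rows and columns each held between 22.2% and 26.6% of the chosen probes and between 24.7% and 25.2% of all probes tested.

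The 15 probes with RefSeq accessions could be matched to genes through the RefSeq table, and 14 passed the filter. None was chosen, and 1 of them passed either AdipoAI limit. This was Gusb, the lysosomal beta-glucuronidase, with 1.11 in AdipoAI+LPS minus LPS, 0.39 in AdipoAI minus DMSO and -0.91 in LPS minus DMSO. In the log2 values that the authors deposited as a table, all 379 probes were found, 378 had the same signs in both AdipoAI comparisons and 325 met the whole rule.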

How the data were processed

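A company measured the RNA of 12 RAW264.7 samples for the authors on Cy3 arrays. The deposited scanner output gives a linear intensity per spot, which Agilent Feature Extraction 11.0.1.1 had corrected for background but which no step had brought to a common scale between arrays. It also marks spots that are well above background, saturated or outliers. The deposited series table holds log2 values that the authors made from these arrays by quantile normalization in GeneSpring, with dim probes filtered, per the methods. It was used as an alternative.

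Of the 62939 spots on an array, 1439 control spots and 300 spots named as negative were left out. Of the 60915 probes left, 221 with a spot flagged as an outlier were left out, and spots of 1 probe were averaged. Quantile normalization over the 12 arrays was run on the log2 intensities of the other 60694 probes. The 33692 with 3 or more arrays well above background were tested, 400 of them named as lincRNAs. One limma fit of the 4 groups, with Benjamini-Hochberg adjustment over all probes tested, gave the calls at an adjusted p under 0.05. The fit was tested on simulated data. Fits were made with limma 3.58.1 in R 4.3.3, and figures with matplotlib 3.10.9 in Python 3.11.15.

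The chosen probes, the rule and the lists were set with earlier results of these data known. The rule for naming was to name chosen probes with RefSeq accessions and, where no table pairs the other identifiers with genes, the first 2 higher and 2 lower probes well above background on all 12 arrays, ranked by the smaller of the AdipoAI differences. Gusb and the probe before ASMM10P028071 were described after their values were seen. Macrophage, fibroblast, adipocyte and lymphocyte markers and prepared gene lists were not used, since the probes could not be paired with genes. Alternatives covered the normalization, the background correction (normexp on the median signal, offset 50), the series table, the filter, outlier flags, both size limits, the variance model, the threshold of the methods, a block for the scan or for the replicate number, and the removal of 1 array at a time.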

Additional observations from a re-analysis of the deposited data

Results flagged for a closer look

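By the interaction term of the limma fit, 8 of the 379 probes (2.11%) were called for a different AdipoAI effect with LPS, at an adjusted p under 0.05. Of these, 5 were higher and 3 lower with AdipoAI. All probes tested had such a call in 3.08%, so the count does not set the chosen probes apart. Among the named probes only ASMM10P028071 had such a call, with an interaction of -1.12 on the log2 scale (standard error 0.14, adjusted p = 0.00157 by limma). Its AdipoAI minus DMSO was -4.12 and its AdipoAI+LPS minus LPS was -5.24. The size of this interaction depended on the background correction, since with normexp these differences were -3.04 and -3.31, much closer to each other. Its 3 AdipoAI+LPS arrays all lay below its 3 AdipoAI arrays. The AdipoAI+LPS arrays and 1 of the AdipoAI arrays were from the second scan, and with the scan as a block limma called the interaction in 6 of the 379. The share of all probes called in that fit was not computed. Groups of 3 arrays are too small for a check of single arrays by the gap to their neighbours.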

How the results depend on the processing

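Background correction by normexp left 132 probes within the limits, 99 higher and 33 lower, of which 108 were among the 379, and 14 of the 379 then had a called interaction. A filter of all 12 arrays above background left 213 (135 higher, 78 lower), a limit of 1.5 for AdipoAI left 76 (58 and 18), and an LPS limit of 0.3 left 216 (120 and 96). With the scan as a block, limma called 80 of the 379 in AdipoAI+LPS vs. LPS and 15 in AdipoAI+LPS vs. AdipoAI. At the threshold of the methods, an unadjusted p under 0.05 with a log2 fold change of 1.5, it called 125 in AdipoAI vs. DMSO, 131 in AdipoAI+LPS vs. LPS, 6 in AdipoAI+LPS vs. AdipoAI and 0 in LPS vs. DMSO, where the limit of the choice allows none and 41 had an unadjusted p under 0.05. The shares of all probes called with normexp, with the scan as a block or at these unadjusted thresholds were not computed, and nothing is read from the counts of calls. The causes were not tested.

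When 1 array at a time was left out, the number within the limits was 275 to 446, of higher probes 169 to 253 and of lower probes 92 to 210. The lowest were without AdipoAI+LPS replicate 1 for all and for lower probes, and without DMSO replicate 1 for higher probes. The calls among the 379 ranged from 176 to 279 in AdipoAI vs. DMSO, from 190 to 243 in AdipoAI+LPS vs. LPS and from 12 to 27 in LPS vs. DMSO. They ranged from 32 to 50 in AdipoAI+LPS vs. AdipoAI and from 5 to 8 for the interaction. The 12 came without DMSO replicate 2 and also without DMSO replicate 3. The 5 came without DMSO replicate 2, without LPS replicate 1 and without AdipoAI+LPS replicate 1. Shares of all probes were not computed for these fits.

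The replicate numbers gave no sign of pairing the samples, as the deviations of same-numbered arrays had correlations from -0.188 to 0.113, with 1 of 18 over 0.1. Between arrays of different numbers they ran from -0.326 to 0.338, with 11 of 36 over 0.1. A structure shared under another numbering was not tested. The replicate block kept the 379 probes and gave 215, 227, 20, 44 and 6 calls in AdipoAI vs. DMSO, AdipoAI+LPS vs. LPS, LPS vs. DMSO, AdipoAI+LPS vs. AdipoAI and the interaction. Shares of all probes were not computed for that fit. Scaling to the 75th percentile gave 382 probes, the authors' processed values 347, no filter on dim probes 460, outlier spots kept 389, a filter on every array of 1 group 342 and an LPS limit of 1 511. No named probe changed sign under any alternative run.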

Other observations

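A stretch of neighbouring identifiers held several lower probes. Within 50 consecutive identifier numbers, 7 of the 31 tested probes were among the 164 lower ones. Outside this stretch no 50 numbers held more than 4 lower probes, and no 50 numbers anywhere held more than 3 of the 215 higher probes. All 7 were well above background on all 12 arrays, beside 75% of all probes tested. Limma called all 7 in both AdipoAI comparisons, beside 6.86% of all probes, which the choice of probes favours. In none of the 7 did AdipoAI+LPS replicate 1 lie 1 log2 unit or more from the mean of replicates 2 and 3. Their AdipoAI differences lay between -1.53 and -1.16 without LPS and between -1.62 and -1.16 with LPS. Their mean log2 signal relative to DMSO was -1.35, -1.14 and -1.59 on the AdipoAI arrays and -1.90, -1.12 and -1.21 on the AdipoAI+LPS arrays. Over the 12 arrays the pairs among them had a Pearson r between 0.90 and 0.997, which includes the differences between groups for which they were chosen. None of the other 24 tested probes in the stretch met both AdipoAI limits, and 7 of them were lower in both comparisons. The stretch was found after the values were seen, and what its transcripts share is not given in the sources used here.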
